A study of Mus musculus with 20 samples.

Results

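FOXJ1 and the RFX factors were followed across mouse spermatogenesis through 7 genes, Foxj1, Rfx1, Rfx2, Rfx3, Rfx4, Rfx5 and Rfx7, out of 18193 genes with a probe set of their own. They were taken by name, as all probe sets that the platform annotation gives to 1 of these genes alone, which were 14 of the 45037 probe sets. Of these 14, 11 reached a log2 signal of 5 in at least 2 arrays and were tested, and 3 stayed under that filter (Rfx1 1422109_at, Rfx2 1433415_at and Rfx4 1432053_at). The genes lie on autosomes, Foxj1 on chromosome 11 and Rfx1, Rfx2, Rfx3, Rfx4, Rfx5 and Rfx7 on chromosomes 8, 17, 19, 10, 3 and 9 in that order.

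The 20 arrays measured total RNA of testis cells of C57BL/6 x DBA/2J F1 males, stained with the DNA dye Hoechst and sorted by flow cytometry. The labels give an age of 10 to 16 weeks, and the study's methods give a lower upper limit. Before pachytene, 4 arrays held spermatogonia, 3 held pre-leptotene cells and 3 held leptotene-zygotene spermatocytes. Pachytene was split into an early (1 array), a middle (2 arrays) and a late fraction (1 array), and 2 diplotene and 4 round spermatid arrays followed. All mice were untreated and of the same cross, and RNA was pooled from several sorts. The spread between arrays is therefore that between pools, with any difference between array projects (described under the processing) included. Values are the deposited GC-RMA signals on the log2 scale, and differences are the later fraction minus the earlier one with the standard error of the limma fit. The number of arrays limits the precision, and early and late pachytene, with 1 array each, were assumed to vary like the other fractions. A signal is specific to its probe set, so levels of different genes were not set against each other.

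A cilium or flagellum grows from a core of microtubules, the axoneme, which carries dynein motor arms, radial spokes and a central pair. FOXJ1, a forkhead protein, switches on the genes of motile cilia, and RFX proteins bind the X-box, a DNA element found before many cilium genes. In mice RFX2 is needed for spermatids to form a flagellum and RFX3 for cilia of several tissues, RFX4 acts in brain development, RFX1 is a widely expressed relative, and RFX7 is needed for cilia of the neural tube in Xenopus. RFX5, whose name places it among these factors, has another known task, since with RFXANK and RFXAP it binds the promoters of MHC class II genes.

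To show which letters RFX proteins are known to read, sites were taken from RefSeq promoters of build GRCm38.p6, each 300 bases long with 250 before the gene start and 50 after it. Of the 7 genes, 6 were matched, and both strands were searched for the X-box palindrome (GTTNCC, then any 2 bases, then GGNAAC) and for its half-site GTTGCC, which lies inside the palindrome where the bases allow it. Capitals mark the palindrome in the first lines and the half-site in the rest (read as GGCAAC where it lies on the other strand), and coordinates are those of the capitals. All lines run 5′ to 3′ on the gene's strand. The palindromes shown are those found in the cilium genes described here, and the half-sites are those of the RFX genes themselves and a selection from the cilium genes named below for their change into mid-pachytene, not all that carry one.
Ccdc151 (dynein arm docking, chr9:22002655-22002668, minus strand): cgcgggcgGTTTCCTTGGGAACgtgggcgg
Dnaaf6 (dynein arm assembly, chr1:31222780-31222793, plus strand): acaaagttGTTACCCAGGCAACagagcaac
Bbs7 (BBSome, chr3:36613497-36613510, minus strand): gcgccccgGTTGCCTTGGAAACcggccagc
Rfx1 (chr8:84066837-84066842, plus strand): tgggtagcaacaGTTGCCccggtgagggaa
Rfx2 (chr17:56831119-56831124, minus strand): agcttggtaaccGTTGCCgggcgcaacgcc
Rfx3 (chr19:28011130-28011135, minus strand): gttatagcaaccGTTGCCttgtgaatcaag
Dnah7a (dynein heavy chain, chr1:53706979-53706984, minus strand): tcgctcctcacaGTTGCCtgccaccctctg
Dnaaf4 (dynein arm assembly, chr9:72958792-72958797, plus strand): gccggaagtgatGGCAACcccgcaatcccc
Ribc2 (doublet microtubule protein, chr15:85132088-85132093, plus strand): acggaggttggcGTTGCCcggggaattgga
Bbs1 (BBSome, chr19:4906621-4906626, minus strand): atggctgagctgGTTGCCaaggcgacgcct

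The half-site stood in 19 of 46 promoters of axonemal genes (41.3%) and in 12 of 23 promoters of intraflagellar transport and BBSome genes (52.2%), against 15.8% of the 9772 promoters of genes tested on the arrays and 14.1% of all 27025 promoters. It stood in the promoters of 3 of the 6 matched genes, at position -116 from the annotated start in Rfx2, 2 in Rfx1 and 32 in Rfx3. The palindrome was rarer, in 2 of 46 axonemal promoters (4.35%), in 1 of 23 intraflagellar transport and BBSome promoters (4.35%) and in 0 of the 6 promoters of the RFX genes. It was in 0.839% of the promoters of tested genes and in 0.529% of all promoters. The forkhead motif TGTTTAC was in 1 of 46 axonemal promoters (2.17%), in 3.05% of those of tested genes and in 4.05% of all promoters. For TGTTTGT these were 0 of 46, 5.4% and 7.6%. These counts describe letters in a window of 300 bases.

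The 7 genes fell into 3 groups by the fractions in which their signal was high, as the plot of their signals in every array shows. Rfx2 and Rfx4 rose at the step into leptotene-zygotene and again into mid-pachytene, and stayed high into round spermatids. Foxj1, Rfx1 and Rfx3 had their highest signal in round spermatids, 8.78-, 5.04- and 5.43-fold above diplotene. Rfx5 and Rfx7 had their lowest signal there, 3.11-fold below diplotene for Rfx5 and under the filter value of 5 in all 4 arrays for Rfx7.

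**Figure D1:**
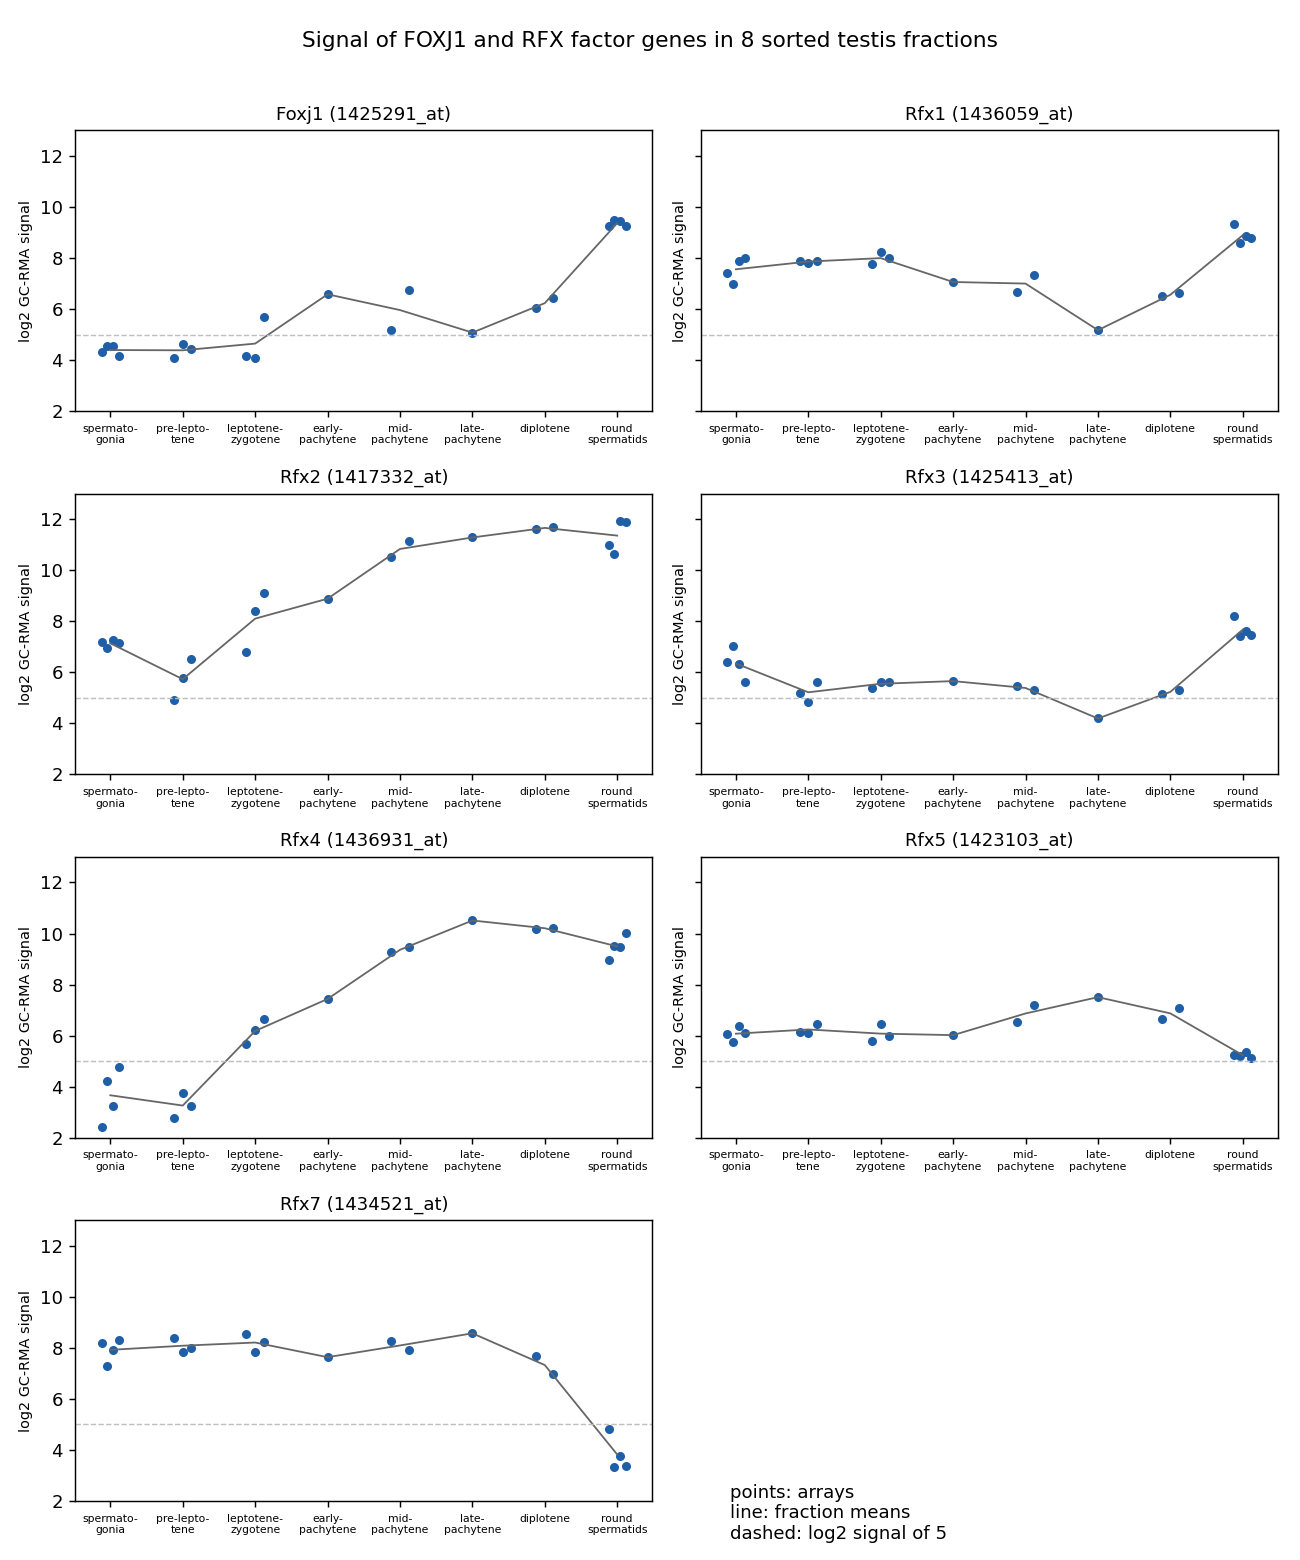
Log2 GC-RMA signal (y axis) of the probe set of highest mean of each of the 7 genes in the 8 sorted fractions (x axis, order of meiosis). Points are arrays, grey lines join fraction means and the dashed line is the log2 signal of 5 used in the filter. Rfx2 and Rfx4 climb from pre-leptotene to mid-pachytene, whereas Foxj1 stays at or below 6.75 until round spermatids, where it lies between 9.24 and 9.50.

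Rfx2 was represented best by probe set 1417332_at. Its log2 signal was 7.18, 6.96, 7.29 and 7.14 in spermatogonia, 4.91, 5.77 and 6.51 in pre-leptotene cells, and 6.81, 8.39 and 9.11 in leptotene-zygotene spermatocytes. It was 8.89 in the early-pachytene array, 10.51 and 11.16 in mid-pachytene, 11.29 in late-pachytene, 11.61 and 11.71 in diplotene, and 11.00, 10.63, 11.93 and 11.87 in round spermatids. Every pre-leptotene array was below every spermatogonial one and below every leptotene-zygotene one, and every array from mid-pachytene on was above all earlier ones.

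At the step into leptotene-zygotene Rfx2 rose by 2.37 ± 0.52 (SE, n = 3 each, 5.18-fold, limma adjusted p = 0.0315). Rfx2 and Rfx4 were the 2 probe sets called among the 11, both higher, where 1.86% of all 22396 tested probe sets were called higher and 2.02% were called in either direction. Within the array projects that held both fractions, the difference for Rfx2 was 1.90 (project 2) and 2.60 (project 8). The call rested on single arrays: without pre-leptotene replicates 1, 2 or 3 in turn the adjusted p was 0.142, 0.0501 and 0.0532, and without leptotene-zygotene replicates 2 or 3 it was 0.0816 and 0.203, with differences between 1.87 and 2.76.

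Into mid-pachytene Rfx2 rose by a further 2.73 ± 0.58 over leptotene-zygotene (n = 2 and 3, 6.63-fold, adjusted p = 0.00305), and by 2.77 within the 1 project that held both. Without mid-pachytene replicate 2 the adjusted p was 0.0562. From mid-pachytene on it changed at no tested step, with 0.83 ± 0.63 for diplotene over mid-pachytene (adjusted p = 0.418, at a step with 19.3% called) and -0.30 ± 0.55 for round spermatids over diplotene (adjusted p = 0.788). Averaged over mid-pachytene, late-pachytene, diplotene and round spermatids, Rfx2 exceeded its average over the 3 fractions before pachytene by 4.29 ± 0.31 (adjusted p = 3.72e-09), in a contrast where 77.3% of tested probe sets were called.

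None of the other Rfx2 probe sets was called into leptotene-zygotene or mid-pachytene, the steps at which 1417332_at rose. Probe set 1433416_at read between 2.31 and 3.18 in all 16 arrays before round spermatids and 5.59, 5.69, 4.97 and 3.65 in round spermatids, which were 2.20 ± 0.43 above diplotene (adjusted p = 0.00155). It passed the filter through round spermatids alone, and with values under 5 raised to 5 the difference was 0.32 (adjusted p = 0.27). Probe set 1442578_at lay between 3.03 and 5.57 with no call at a neighbouring step, and 1433415_at lay between 1.87 and 2.26. In the contrast of averages from mid-pachytene on against those before pachytene, 1442578_at was higher by 0.92 (limma adjusted p = 0.00916). There 1433416_at was higher by 0.72 (adjusted p = 0.0137), where 77.3% of tested probe sets were called. The call of 1442578_at was lost under 1 of 25 alternatives and that of 1433416_at under 2 of 25. Which stretch of the transcript each probe set reads was not analysed here.

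Rfx4, read by 1436931_at, was near background before meiosis. Its log2 signal was 2.40, 4.24, 3.23 and 4.79 in spermatogonia, 2.77, 3.76 and 3.26 in pre-leptotene cells, and 5.68, 6.21 and 6.66 in leptotene-zygotene spermatocytes. It was 7.44 in early-pachytene, 9.26 and 9.46 in mid-pachytene, 10.51 in late-pachytene, 10.19 and 10.22 in diplotene, and 8.98, 9.53, 9.48 and 10.00 in round spermatids. No leptotene-zygotene array overlapped an earlier fraction, and no array from mid-pachytene on overlapped leptotene-zygotene.

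Rfx4 rose by 2.92 ± 0.49 into leptotene-zygotene (adjusted p = 0.00983) and by 3.18 ± 0.55 from there into mid-pachytene (9.06-fold, adjusted p = 0.000849). Within projects 2 and 8 the first step was 2.91 and 3.40, and within project 6 the second was 3.25. All pre-leptotene values were under 5, and with values under 5 raised to 5 the first step was 1.18 (adjusted p = 0.0303). The first call was lost without pre-leptotene replicate 1 (2.68, adjusted p = 0.0595), without leptotene-zygotene replicate 3 (2.68, adjusted p = 0.0658) and with only the 6 arrays compared (adjusted p = 0.255), and the second under no array left out. Late over mid-pachytene was 1.15 ± 0.73 with 1 late-pachytene array (adjusted p = 0.421). The 4 round spermatid arrays lay below both diplotene ones, by 0.71 ± 0.52 on average (adjusted p = 0.38). The second Rfx4 probe set, 1432053_at, read between 2.30 and 3.11 in all 20 arrays.

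Foxj1, with 1 probe set (1425291_at), was low through most of meiosis. Its log2 signal was 4.33, 4.56, 4.55 and 4.14 in spermatogonia, 4.10, 4.63 and 4.44 in pre-leptotene cells, and 4.18, 4.08 and 5.69 in leptotene-zygotene spermatocytes. It was 6.58 in early-pachytene, 5.17 and 6.75 in mid-pachytene, 5.08 in late-pachytene, 6.05 and 6.42 in diplotene, and 9.27, 9.50, 9.46 and 9.24 in round spermatids. Round spermatids stood clear of all other arrays, while the early-pachytene, mid-pachytene and diplotene values overlapped and leptotene-zygotene replicate 3 stood above its 2 companions.

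Round spermatids exceeded diplotene by 3.13 ± 0.44 for Foxj1 (n = 4 and 2, 8.78-fold, adjusted p = 0.000139), and by 3.22 and 3.04 within projects 4 and 6. At this step 5 of the 7 probe sets of highest mean and 7 of all 11 were called, 4 higher and 3 lower, against 25.1% of tested probe sets (10.9% higher and 14.2% lower). One of the 4, Rfx2 1433416_at, passed the filter only through round spermatids and was not called with values under 5 raised to 5. Before it, Foxj1 was higher in mid-pachytene than in leptotene-zygotene by 1.31 ± 0.46 (adjusted p = 0.0437), with arrays that overlapped, where 28.9% of probe sets were called (13.7% higher, 15.3% lower) and 3 of the 11 here were higher and 1 lower. That call was lost without leptotene-zygotene replicate 1 or 2 (adjusted p = 0.139 and 0.148), without mid-pachytene replicate 2 (0.52, adjusted p = 0.568) and with values under 5 raised to 5 (0.73, adjusted p = 0.117). Early-pachytene over leptotene-zygotene was 1.93 ± 0.58 with 1 early-pachytene array (adjusted p = 0.0662), at a step with 4.76% called.

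Into leptotene-zygotene the difference for Foxj1 was 0.26 ± 0.41 (adjusted p = 0.958), and -0.26 without leptotene-zygotene replicate 3. That array also had the highest Rfx2 (9.11) and Rfx4 (6.66) of its fraction, and the highest median log2 signal over 54 axonemal genes, 8.11 against 6.24 and 6.45 in replicates 1 and 2. Its summed linear signal of 6 pachytene and diplotene markers was 29281, against 13246 and 14250 in replicates 1 and 2. Into leptotene-zygotene 2 of these 6 markers were called higher and 0 lower, with a median change of 2.21. The part of RNA from later stages in the rise of Rfx2, Rfx4 and the axonemal genes at this step was not tested. Round spermatid transcripts were measured in every fraction: all 8 of a list of spermatid markers (protamines, transition proteins, acrosomal proteins and others) had fraction means of at least 5 everywhere. Their summed linear signal was 27559 to 44480 in leptotene-zygotene, 45634 in early-pachytene, 54052 and 54946 in mid-pachytene, 13579 in late-pachytene, 26979 and 27323 in diplotene and 86175 to 118460 in round spermatids. Foxj1 was lowest after leptotene-zygotene in the late-pachytene array, where this sum was lowest too. In spermatogonia, however, the sum was 43125 to 173400 (median 99460), while Foxj1 read 4.14 to 4.56. The part of spermatid RNA in the values of Foxj1 before round spermatids was not tested. Each array holds RNA of many cells, so that fewer cells of a type and less RNA per cell cannot be told apart.

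Rfx1, read by 1436059_at, was moderate before pachytene, lowest in late-pachytene and highest in round spermatids. Its log2 signal was 7.40, 6.99, 7.87 and 7.98 in spermatogonia, 7.90, 7.79 and 7.90 in pre-leptotene cells, and 7.76, 8.22 and 8.01 in leptotene-zygotene spermatocytes. It was 7.06 in early-pachytene, 6.68 and 7.32 in mid-pachytene, 5.17 in late-pachytene, 6.50 and 6.62 in diplotene, and 9.33, 8.61, 8.87 and 8.77 in round spermatids. All pachytene and diplotene arrays except mid-pachytene replicate 2 and early-pachytene lay below every array of the earlier fractions.

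Rfx1 fell by 1.00 ± 0.32 into mid-pachytene (adjusted p = 0.0306) and by 1.83 ± 0.43 from there to the 1 late-pachytene array (adjusted p = 0.0288), the 1 probe set of 11 called at a step with 4.28% called. Neither fall held when single arrays were left out: the first was lost without leptotene-zygotene replicate 2 (-0.89, adjusted p = 0.0934) or 3 (-0.99, 0.0584) or mid-pachytene replicate 1 (-0.68, 0.221) or 2 (-1.32, 0.0527), and the second without mid-pachytene replicate 1 (-2.14, 0.0524) or 2 (-1.51, 0.112). The second was also lost with quantile normalization (-1.50, adjusted p = 0.0619), with the array project as a block (-1.40, 0.145) and with only the 3 arrays compared (0.398), and the first with only the 5 arrays compared (0.0793). Round spermatids were 2.33 ± 0.31 above diplotene (5.04-fold, adjusted p = 9.31e-05), and 2.83 and 2.25 within projects 4 and 6. The second Rfx1 probe set, 1422109_at, stayed under the filter, with 4.15, 4.26, 4.81 and 4.52 in round spermatids and 2.62 to 3.32 in the other 16 arrays.

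Rfx3, read by 1425413_at, was high at both ends of the series. Its log2 signal was 6.39, 7.04, 6.33 and 5.63 in spermatogonia, 5.19, 4.85 and 5.62 in pre-leptotene cells, and 5.38, 5.64 and 5.64 in leptotene-zygotene spermatocytes. It was 5.66 in early-pachytene, 5.45 and 5.32 in mid-pachytene, 4.19 in late-pachytene, 5.16 and 5.31 in diplotene, and 8.19, 7.43, 7.61 and 7.47 in round spermatids. Round spermatids were above all other arrays, 2.44 ± 0.34 above diplotene (5.43-fold, adjusted p = 0.000148), and 3.04 and 2.29 above it within projects 4 and 6. Probe set 1437375_at of the same gene lay between 4.70 and 5.85 in all arrays, with 0.34 ± 0.30 at that step (adjusted p = 0.481), so the 2 probe sets of Rfx3 disagreed.

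At the first step no gene of the group was called, with 0 of 11 probe sets against 0.487% of all tested ones. Pre-leptotene values were below all spermatogonial ones for Rfx2 (-1.41 ± 0.48, adjusted p = 0.216) and for Rfx3 (-1.13 ± 0.30, adjusted p = 0.0942). With the array project as a block, 904 probe sets were called at this step in place of 109, and the adjusted p was 0.073 for Rfx2 and 0.1 for Rfx3. Rfx3 was called without spermatogonia replicate 4 (-1.37, adjusted p = 0.0131) and with the replicate number as a block (-1.28, adjusted p = 0.0251). Within projects 2, 5 and 8 the differences were -2.26, -1.19 and -0.62 for Rfx2, and -1.21, -2.20 and -0.01 for Rfx3. The spermatid marker sum was 24335 to 37526 in pre-leptotene cells and 43125 to 173400 in spermatogonia (median 31149 and 99460). The sum of 6 pachytene and diplotene markers was 2813 to 6702 in pre-leptotene cells and 6563 to 26522 in spermatogonia, with 2 of the 6 changing upward. The part of either in both differences was not tested. The 54 axonemal genes had a median change of -0.61 at this step, with 6 changing upward and 0 called. The 10 macrophage markers summed to 90.3 to 1304 in pre-leptotene cells and 989 to 2797 in spermatogonia, where 8 of 10 had a fraction mean of at least 5 against 1 of 10 in pre-leptotene cells. Markers of the efferent ducts, whose epithelium bears motile cilia, were below 5 in all fractions for 3 of 3 genes but for 1 gene in diplotene.

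Rfx5 and Rfx7 fell at the last step. Rfx5 (1423103_at) read 6.07, 5.75, 6.39 and 6.10 in spermatogonia, 6.15, 6.12 and 6.45 in pre-leptotene cells, and 5.77, 6.47 and 5.99 in leptotene-zygotene spermatocytes. It read 6.02 in early-pachytene, 6.52 and 7.21 in mid-pachytene, 7.51 in late-pachytene, 6.67 and 7.07 in diplotene, and 5.23, 5.21, 5.37 and 5.12 in round spermatids. Both mid-pachytene arrays were above the 3 leptotene-zygotene ones, by 0.79 ± 0.29 (adjusted p = 0.0538), and all round spermatid arrays were below every other array, 1.64 ± 0.28 lower than diplotene (3.11-fold, adjusted p = 0.0006).

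Of the RFX5 partners, Rfxap fell at the same step, with 7.25, 7.58, 8.08 and 6.89 in round spermatids and 9.50 and 9.78 in diplotene (-2.19 ± 0.35, adjusted p = 0.00041). Rfxank averaged 8.30 in round spermatids and 7.90 in diplotene with no call, and Ciita, the coactivator that MHC class II genes require, had fraction means between 2.80 and 2.91. The 5 MHC class II genes measured summed to a linear signal of 357 to 726 in round spermatids, 252 to 514 in diplotene and 719 to 7432 in spermatogonia. Spermatogonia were the fraction where 8 of 10 macrophage markers averaged at least 5. In pre-leptotene replicate 1 the MHC class II sum was 3660 and the macrophage sum 1304. The macrophage sum was also 1742 and 1901 in diplotene and 1283 to 1757 in round spermatids, with 1 of its 10 markers averaging at least 5 in each. Of the MHC class II genes, H2-Ab1 averaged 8.42 in spermatogonia and 8.54 in round spermatids. One of the 5 MHC class II genes, H2-DMa, was called higher in round spermatids than in diplotene (6.77 and 3.77, adjusted p = 0.000397) and 0 of 5 lower.

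Rfx7 was read by 2 probe sets that both fell into round spermatids. Into leptotene-zygotene they differed, with 0.13 ± 0.39 on 1434521_at and -0.51 ± 0.31 on 1460567_at and no call for either. On 1434521_at Rfx7 read 8.19, 7.27, 7.92 and 8.31 in spermatogonia, 8.39, 7.85 and 8.01 in pre-leptotene cells, and 8.54, 7.84 and 8.24 in leptotene-zygotene spermatocytes. It read 7.63 in early-pachytene, 8.25 and 7.93 in mid-pachytene, 8.57 in late-pachytene, 7.69 and 6.96 in diplotene, and 4.84, 3.34, 3.75 and 3.35 in round spermatids. No round spermatid array came near another fraction, and the fall from diplotene was -3.50 ± 0.41 (adjusted p = 4.45e-05) on this probe set and -3.01 ± 0.33 (adjusted p = 2.74e-05) on 1460567_at. Since all round spermatid values were under 5, the size of the fall is uncertain, and with values under 5 raised to 5 it was -2.32 (adjusted p = 5.64e-05) and -1.87 (adjusted p = 0.000221). Within projects 4 and 6 it was -2.85 and -3.21.

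**Figure D2:**
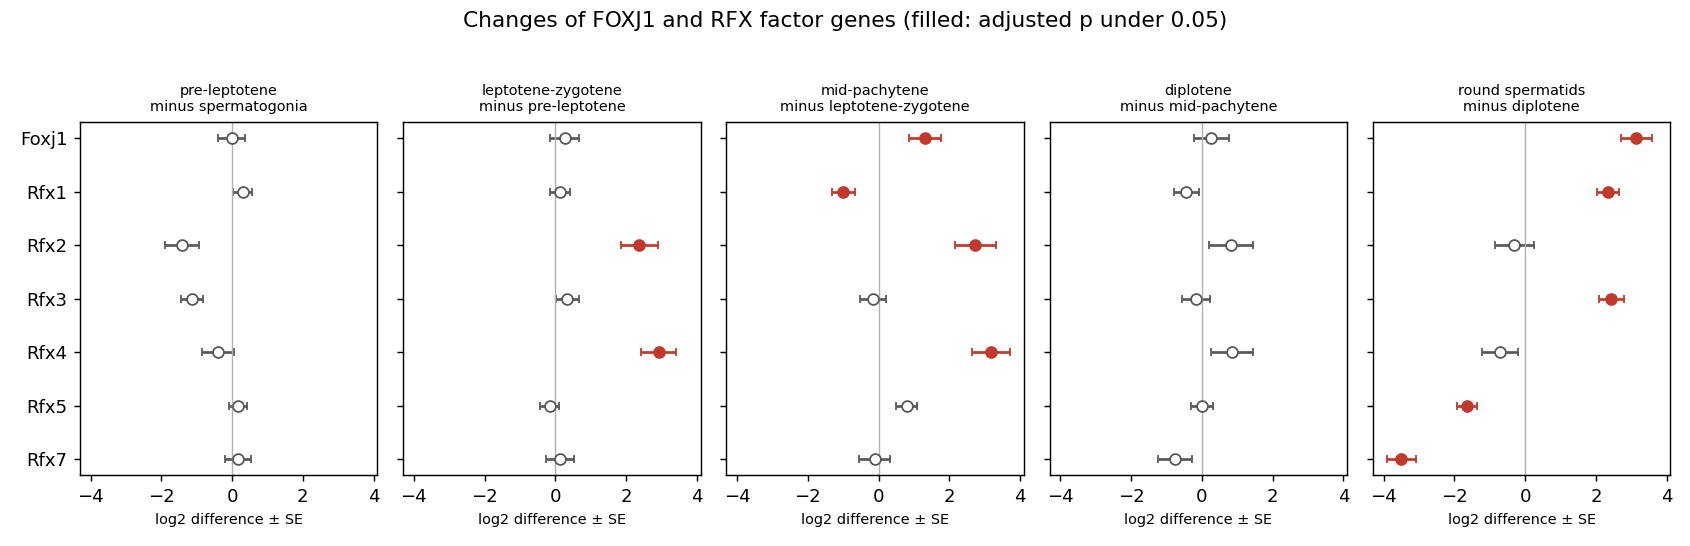
Difference in log2 signal between fractions (x axis, later minus earlier, with its standard error) of the best probe set of each gene (y axis) at 5 steps. Filled red points passed an adjusted p of 0.05. Rfx2 and Rfx4 pass it at the steps into leptotene-zygotene and mid-pachytene, Foxj1, Rfx1 and Rfx3 are higher in round spermatids, and Rfx5 and Rfx7 are lower there.

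The question posed for these factors was whether they rise before the axonemal genes. The 4 lists of axonemal genes held 57 measured genes, of which 54 passed the filter: dynein arms, dynein arm assembly and docking, radial spokes and central pair, and tektins with other doublet microtubule proteins. At the step into leptotene-zygotene, where Rfx2 and Rfx4 were called, 19 of the 54 were called higher and 0 lower with a median change of 1.92, beside 300 higher and 10 lower with a median of 0.04 over all 11952 genes tested. At the same step intraflagellar transport and BBSome genes, which build and sort the cargo of cilia, had 1 of 27 called higher (Dync2li1, 2.13 ± 0.46) and a median of 0.37. The count of axonemal genes rested on few arrays: it was 2 or 3 without pre-leptotene replicates 1 or 3 and 2 without leptotene-zygotene replicate 3.

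Into mid-pachytene 41 of the 54 axonemal genes were higher than in leptotene-zygotene and 0 lower, with a median of 2.55, beside 1938 higher and 2044 lower of all 11952 genes tested and a median of -0.11. Without mid-pachytene replicate 2, 21 of them were called. The 2 with the largest change in each list were the dynein heavy chain gene Dnah7a (3.66 ± 0.45) and the intermediate chain gene Dnaic1 (3.57 ± 0.70), the assembly genes Zmynd10 (3.23 ± 0.85) and Dnaaf4 (3.21 ± 0.49), the radial spoke gene Rsph9 (3.43 ± 0.66) and the central pair gene Cfap54 (3.38 ± 0.45), and Tekt5 (3.52 ± 0.95) and Ribc2 (2.84 ± 0.46) of the doublet microtubules. Intraflagellar transport and BBSome genes had 20 of 27 higher and 0 lower, led by Bbs1 (2.95 ± 0.57) and Ift57 (2.38 ± 0.30). At the last step, where Foxj1, Rfx1 and Rfx3 were called higher, 4 of the 54 axonemal genes were higher and 3 lower with a median of 0.19, beside 1616 higher and 1700 lower of all 11952 and a median of -0.05.

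The order was described by the first fraction, after the one of lowest mean, in which a gene passed the midpoint between its lowest and highest fraction mean. Rfx2 and Rfx4 passed it in early-pachytene. The axonemal genes did so in leptotene-zygotene for 2, early-pachytene for 39, mid-pachytene for 7, late-pachytene for 3, diplotene for 0 and round spermatids for 3. Foxj1, lowest in pre-leptotene cells, passed its midpoint in round spermatids, the same fraction as 3 of the axonemal genes (Dnah9, Efhc2 and Ribc1) and after the other 51. Rfx1, Rfx3, Efhc2 and Ribc1 were lowest in the 1 late-pachytene array, so that only later fractions could count. Their place in this order says nothing of a late rise. Efhc2 averaged 7.66 in spermatogonia and 9.55 in round spermatids, and Ribc1 8.74 in early-pachytene and 10.50 in round spermatids. Dnah9 averaged at most 3.46 before round spermatids and 5.33 there. Its mean reached the filter value of 5 in that fraction alone, so that its place in this order is tied to the filter. Rfx1 stood at 64.1%, 72.2%, 75.9% and 50.7% of its range in the 4 fractions through early-pachytene, and Rfx3 at 61.9% in spermatogonia. Rfx5 and Rfx7 were lowest in round spermatids and passed none. Over all 11952 genes, 15.0% passed theirs in early-pachytene and 12.3% in round spermatids. These shares include 5363 genes that never passed their midpoint after their lowest fraction, against 0 of the 54 axonemal genes.

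**Figure D3:**
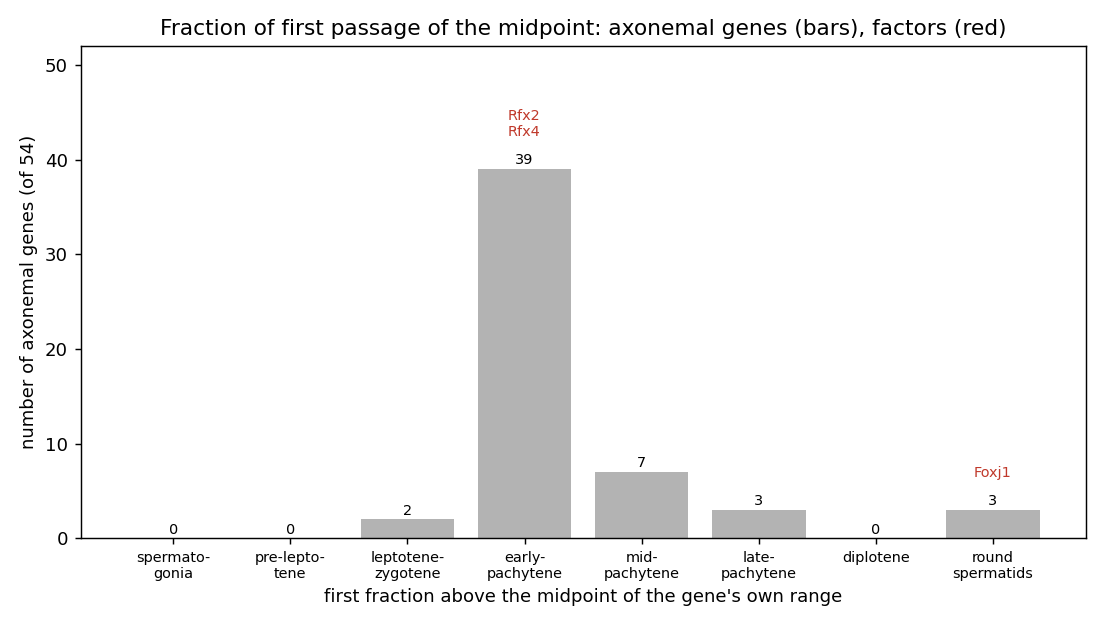
Number of the 54 axonemal genes (y axis) that first passed the midpoint of their own range in each fraction (x axis, order of meiosis), with the factors that were lowest before leptotene-zygotene written in red above the fraction where they did. Rfx2 and Rfx4 share early-pachytene with 39 genes, and Foxj1 shares round spermatids with 3. Of these 3, Efhc2 and Ribc1 were lowest in late-pachytene, so that only later fractions could count, and the mean of Dnah9 reached 5 in round spermatids alone.

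On the scale of each gene's own range, Rfx2 stood at 40.0% in leptotene-zygotene, 53.2% in early-pachytene and 86.1% in mid-pachytene, and Rfx4 stood at 40.3%, 57.6% and 84.2% in the same fractions. The median axonemal gene stood at 34.0%, 63.0% and 73.2%, and the median intraflagellar transport or BBSome gene at 20.2%, 34.5% and 74.9%. With values under 5 raised to 5, Rfx4 stood at 21.4%, 44.2% and 79.2% and the median axonemal gene at 26.7%, 60.4% and 70.5%, so that Rfx4 was above that median in leptotene-zygotene on the first scale and below it on the second. Foxj1 stood at 5.28% in leptotene-zygotene, 44.0% in early-pachytene, 31.6% in mid-pachytene, 13.9% in late-pachytene and 37.1% in diplotene. Rfx2 and Rfx4 thus shared the fractions in which most axonemal genes rose, within the resolution of 8 fractions, and whether either came first cannot be told apart from these values.

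The early-pachytene fraction has 1 array, from project 5, which held no leptotene-zygotene, mid-pachytene or diplotene array. The late-pachytene array, from project 2, shared no project with mid-pachytene or diplotene. Without the early-pachytene array Rfx2, Rfx4 and most axonemal genes passed the midpoint in mid-pachytene instead (3 before it and 47 by then), with Foxj1 still in round spermatids. Rfx2 moved to mid-pachytene without pre-leptotene replicate 1 and to leptotene-zygotene without leptotene-zygotene replicate 1. With values under 5 raised to 5, Rfx4 passed its midpoint in mid-pachytene and Rfx2 still in early-pachytene. Foxj1 stayed in round spermatids with each of the 20 arrays left out, but passed 25% of its range in early-pachytene, when Rfx2, Rfx4 and 37 of 54 axonemal genes had passed theirs in leptotene-zygotene.

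**Figure D4:**
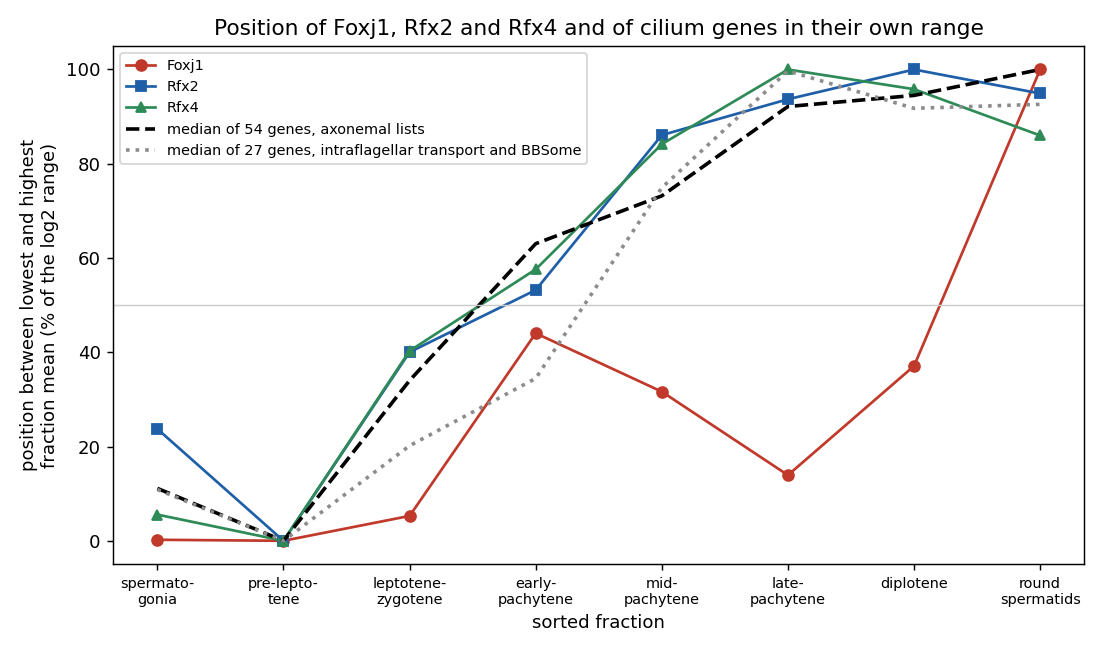
Position of the fraction mean between the gene's lowest and highest fraction mean (y axis, % of its log2 range) in the 8 fractions (x axis, order of meiosis) for Foxj1, Rfx2 and Rfx4, with the median of 54 axonemal genes (dashed) and of 27 intraflagellar transport and BBSome genes (dotted). Rfx2 and Rfx4 run with the axonemal median, and Foxj1 stays under 50% until round spermatids.

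The genes whose pattern over the 20 arrays was most like each factor were ranked by Pearson correlation among 11951 other genes, the arrays sharing fractions and projects. For Rfx2 they were Wdpcp (0.984), Iqch (0.983) and the dynein gene Dnaic1 (0.983), and for Rfx4 Abcc12 (0.992), the central pair gene Cfap54 (0.991) and the dynein gene Dnah1 (0.990). Rfx4 itself ranked 261 for Rfx2, at 0.954. For Foxj1 they were Acsbg3 (0.985), Phf8-ps (0.979) and Trpm6 (0.978). Rfx1 was most like Phlpp1 (0.950), Tmc7 (0.943) and Yap1 (0.924), and Rfx3 most like Osbpl9 (0.965), Pacs2 (0.955) and Paqr9 (0.953). Rfx5 was most like Snx27 (0.954), Fignl1 (0.951) and Mbd1 (0.942), and Rfx7 most like Api5 (0.983), Iqcb1 (0.978) and Tex12 (0.977). The median correlation with the 54 axonemal genes was 0.940 for Rfx2, 0.949 for Rfx4 and 0.785 for Foxj1, and it was 0.270 for Rfx3, -0.055 for Rfx1, -0.051 for Rfx5 and -0.593 for Rfx7.

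Other genes of the 2 families and regulators around them were followed for comparison. Rfx8 averaged 4.27 in spermatogonia and had 4.26, 5.74 and 8.47 in leptotene-zygotene. It had 7.63 and 8.81 in mid-pachytene and 10.53, 11.24, 11.30 and 11.94 in round spermatids, with no call at the neighbouring steps reported here. Averaged over the fractions from mid-pachytene on, Rfx8 was called higher than over the 3 before pachytene, by 4.79. In that contrast 77.3% of tested probe sets were called. Foxj3 fell by 1.19 ± 0.34 into mid-pachytene (adjusted p = 0.0173). Foxj2 fell by 1.55 ± 0.37 into round spermatids (adjusted p = 0.0065), as did Foxj3 (-1.28 ± 0.33, adjusted p = 0.00893), so that neither rose there as Foxj1 did. All Foxj2 values in diplotene (4.83 and 4.73) and round spermatids (2.24 to 3.77) were under the filter value of 5, so the size of its fall is uncertain. Mybl1, which drives many genes of pachytene spermatocytes, averaged 9.06 in mid-pachytene and 6.85 in leptotene-zygotene, a rise of 2.21 ± 0.42 (adjusted p = 0.00165). Of a list of regulators of multiciliated cells, 2 of 6 measured passed the filter. Both fell into mid-pachytene, a step at which 2044 of 11952 genes were called lower. E2f5 fell by 2.00 ± 0.39 (adjusted p = 0.00192) and Ccno by 1.97 ± 0.44 (adjusted p = 0.00413).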

How the data were processed

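The authors deposited 1 table of linear signal intensity per probe set and array (Affymetrix MOE430 v2), made with GC-RMA in GeneSpring GX (no version is stated in the sources used). The intensity values were put on the log2 scale with no further scaling. Of 45037 probe sets, the platform annotation gives 34945 to 1 gene, 932 to several and 9160 to none, and 34741 of the first were matched to RefSeq by Entrez ID. Fractions were compared with limma 3.58.1 (R 4.3.3) over all 20 arrays, with 12 residual and 3.69 prior degrees of freedom, on 22396 probe sets with a log2 signal of at least 5 in 2 or more arrays. Adjusted p-values are Benjamini-Hochberg over all of these, with a threshold of 0.05. The array medians of the linear signal lay between 11.1 and 12.7.

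Each gene was described by its probe set of highest mean signal, and other probe sets of the 7 genes were given beside it. Genes of the 18 lists (162 of 176 measured) were named where they had the 2 largest changes of their list into mid-pachytene, and others were chosen after their values were seen. The members and lists were chosen with earlier results of these data known. Arrays were tied to 6 array projects by identical signals in a table of the study, and replicates are labelled biological, with each RNA a pool. The p-values therefore measure the spread between pools together with that between array projects, for which the main fit has no term. The scripts were tested on simulated data and run with Python 3.11.15, numpy 2.4.6, pandas 2.3.3 and matplotlib 3.10.9. The alternatives covered scaling, filters, floors, variance models, blocks and each array left out. The order of rise with each array left out was an alternative chosen after seeing the data.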

Additional observations from a re-analysis of the deposited data

How the results depend on the processing

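Of 26 changes of the 7 genes checked, 15 kept their direction and their side of the threshold under every alternative run, and 11 did not. The number of arrays limits all of them, and the causes of the differences below were not tested. The count of probe sets called for pre-leptotene over spermatogonia was 109, and 44 with median centring, 17 with quantile normalization, 25 with values floored at log2 5, 21 with no filter, 175 with a trend in the variance, 0 with only the arrays compared, 904 with the array project as a block, and 9 to 725 with 1 array left out. For leptotene-zygotene over pre-leptotene it was 453, and 151 with no filter, 0 with only the arrays compared, 1031 with the project block and 36 to 781 with 1 array left out. With 1 array left out it was 2100 to 6022 for mid-pachytene over leptotene-zygotene (6479) and 2557 to 5465 for round spermatids over diplotene (5612). The 19 axonemal genes called higher into leptotene-zygotene were 3 with no filter, 0 with only the arrays compared, 35 with the project block and 2 to 33 with 1 array left out, and the 41 into mid-pachytene were 24 with only the arrays compared and 21 to 44 with 1 left out.

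Foxj1 into leptotene-zygotene (0.26) lay between -0.26 (without leptotene-zygotene replicate 3) and 0.55 with 1 array left out. Into mid-pachytene (1.31) it was 0.73 with the floor (adjusted p = 0.117), 1.31 with no filter (0.0851), 1.31 with only the arrays compared (0.215) and 0.52 to 2.11 with 1 left out. Rfx2 into leptotene-zygotene was 2.37 with no filter (adjusted p = 0.0834) and with only the arrays compared (0.275), and 1.87 to 3.02 with 1 left out. Into mid-pachytene it was 2.08 to 3.23. The axonemal genes past their midpoint by leptotene-zygotene (2) were 1 with the floor, 37 at 25% of the range and 0 to 8 with 1 array left out. By early-pachytene (41) they were 3 without the early-pachytene array and up to 43 without another, and in round spermatids (3) they were 0 at 25% of the range.

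Replicate numbers were not taken to pair the arrays, since the labels give the numbers no shared source and not every same-numbered pair deviated together. Of 37 same-numbered pairs 33 had r over 0.1 (median 0.335, lowest -0.172), against 14 of 96 pairs of different number (median -0.115). Of 21 pairs of the same array project all 21 did (median 0.439, lowest 0.123). The main fit has no term for the array project, so that arrays of the same project were treated as independent. With the replicate block the calls were 927 for pre-leptotene over spermatogonia and 996 for leptotene-zygotene over pre-leptotene, with 29 axonemal genes higher into leptotene-zygotene.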
